A study of Mus musculus with 12 samples.

Results

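The comparison described here sets 3 arrays of mouse neurospheres labelled prominin at 24 h against 3 arrays labelled control at 24 h, chosen by their titles as 6 of the 12 arrays of the series. The cells came from the cortex of mouse embryos of gestational day 12.5, grown as floating spheres without serum, with the mitogens EGF, LIF and basic FGF. The titles put both groups at 24 h in culture. Prominin cultures received an adenovirus carrying CD133/R-prominin1, and control cultures are described as grown in medium alone. For the prominin samples titled 24 h, the treatment text names 108 h of exposure, and the series design speaks of GFP-positive neurospheres where the sample texts name no virus for the controls. If the controls had no virus, adenovirus infection and the transferred gene cannot be told apart in this comparison. No mouse strain, genotype or sex is given for the cells, and nothing says whether replicates were separate cultures, so every p-value below measures the spread between these arrays, which may be technical.

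Prominin-1, also called CD133, is a membrane glycoprotein with several membrane-spanning segments that sits on plasma membrane protrusions and binds cholesterol. In the developing brain it lies on the apical surface of neuroepithelial and radial glial progenitors, and it is widely used to sort neural stem cells. Neurospheres are mixed clonal aggregates in which FGF and EGF keep stem-like and progenitor cells dividing while some cells differentiate.

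Each array compared labelled RNA of a culture (Cy5) with a common reference of whole mouse embryos of day 12 (Cy3), with no dye swap. Values are log2 ratios, read as sample over reference after each array was centred on its median probe. The labels give the dyes but not the direction of the ratio. Neural progenitor genes lay mostly on the positive side: Sox2, a transcription factor of neural stem cells, was at 3.73 ± 0.70 (SD, n = 3) in controls and 4.51 ± 0.60 (SD, n = 3) in prominin cultures. Fabp7, a radial glial lipid carrier, was at 3.70 ± 0.77 (SD, n = 3) and 3.68 ± 0.44 (SD, n = 3). The liver gene Alb, at −4.85 ± 0.95 (SD, n = 3) and −6.07 ± 1.58 (SD, n = 3), and the collagen gene Col1a1, at −7.47 ± 1.36 (SD, n = 3) and −7.04 ± 0.70 (SD, n = 3), lay on the negative side. That order is the one sample over reference would give, and it held in both groups. Across 24 neural stem and radial glia probes the median level was 2.74 ± 0.36 (SD, n = 3 arrays) in controls and 2.47 ± 0.26 (n = 3) in prominin cultures. Not all of these genes were positive. Id1 was at −2.18 ± 0.76 (SD, n = 3) in controls and −0.70 ± 0.48 (SD, n = 3) in prominin cultures. Id3 was at −5.37 ± 1.40 (SD, n = 2) and −3.12 ± 0.65 (SD, n = 3).

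The 24 h arrays held many coded values and small whole-number ratios. Of 21738 probes, 10404 to 14465 per array held a measured ratio, while 6289 to 8794 were listed at exactly 0 and 903 to 2540 at a top code of 16.61, and both codes were treated as missing. Between 31.0 and 56.0% of the measured ratios on a 24 h array equalled a ratio of 2 whole numbers up to 10, against 3.28 to 9.60% on the 108 h arrays. Control array 1 and prominin array 1 stood apart, with 2540 and 2328 top codes and the fewest measured probes. Before centring, control medians were −2.04, −2.02 and −1.47 and prominin medians −1.38, −1.14 and −0.99, so centring took a shift of 0.68 between the groups out of every difference reported here. Arrays correlated at 0.604 to 0.711 within a group and at 0.587 to 0.704 between groups over the tested probes, so the groups did not separate by correlation. Probes with no such small whole-number ratio on any of the 6 arrays, 2583 in all, are called bright below, a name for this count only, since no spot intensity was used. They correlated at 0.775 to 0.880 within and 0.749 to 0.874 between groups.

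**Figure D1:**
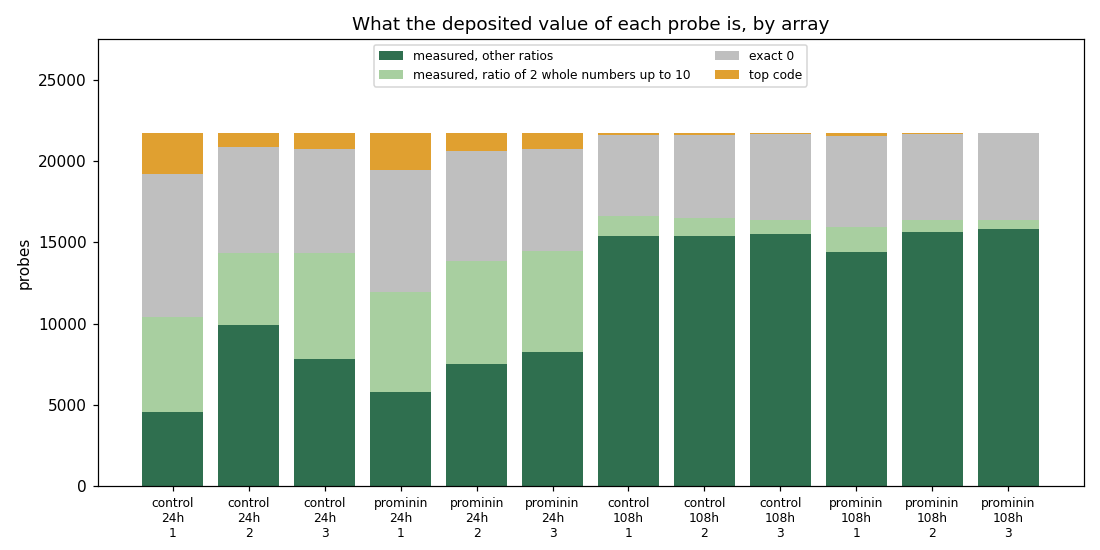
Number of probes (vertical axis) on each of the 12 arrays by kind of deposited value: measured ratios, measured ratios equal to a ratio of 2 whole numbers up to 10, exact 0 and the top code. The 6 arrays of 24 h on the left hold more codes and more small whole-number ratios (31.0 to 56.0% of measured values) than the 6 arrays of 108 h on the right (3.28 to 9.60%).

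No gene passed the test at 24 h. Of 10265 probes with at least 2 values in both groups, which cover 8572 named genes, limma with Benjamini-Hochberg adjustment called 0 (0%), and the lowest adjusted p was 0.588, for Ndrg1. At an unadjusted limma p under 0.05 there were 530 probes (5.16%), of which 166 (1.62%) were higher and 364 (3.55%) lower in prominin cultures. That count was 333 of 7968 tested probes without prominin array 2 and 301 of 7792 without prominin array 3. The split between directions followed the centring: with no centring it was 601 higher and 122 lower, with centring on all measured probes 313 and 231, and with quantile normalization 255 and 264. Among the 5289 probes measured on all 6 arrays, the groups did not overlap for 224 higher (4.24%) and 314 lower (5.94%), and among the 2583 bright ones for 112 (4.34%) and 177 (6.85%). An exact permutation test of 3 arrays against 3 cannot give a two-sided p below 0.1, so single genes are described by their array values.

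Differences were small among bright probes. Bright probes had a median difference of −0.04 (prominin minus control) and 47.1% of them were higher in prominin cultures, against −0.27 and 42.0% of the 4976 probes with a missing value. Differences above 1 unit were seen for 193 bright probes in the higher and 233 in the lower direction, and above 3 units for 1 and 3. The median standard error of a difference was 0.739 for bright and 0.948 for all tested probes. The difference also moved with the level. When bright probes were ordered by level and cut into 5 equal parts, the median was −0.26 in the lowest part and 0.06 in the highest.

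**Figure D2:**
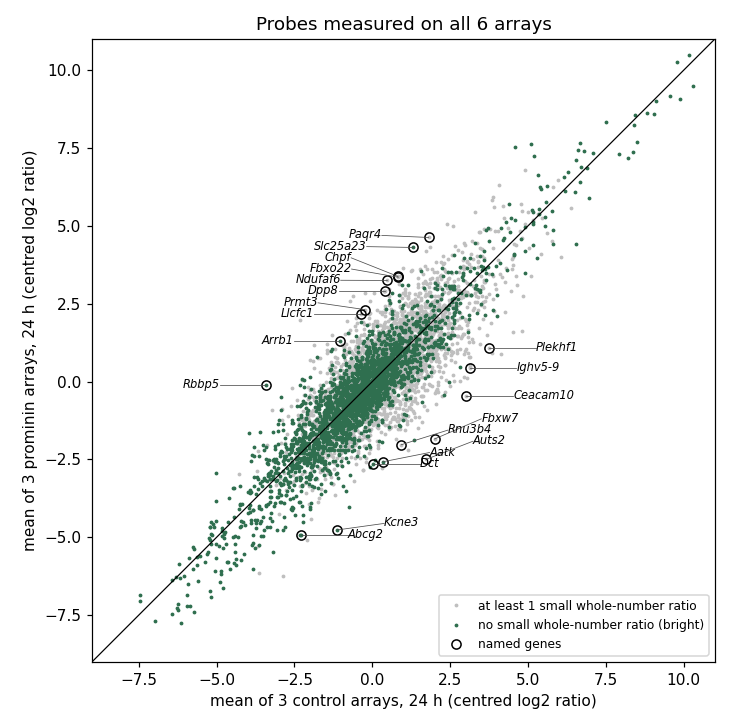
Mean centred log2 ratio of the 3 prominin arrays (vertical axis) against that of the 3 control arrays (horizontal axis) for the 5289 probes measured on all 6 arrays, with bright probes in green, other probes in grey and the named genes circled. Points lie around the line of equality, and the 20 circled genes differ by 2.32 to 4.22 in size on the log2 scale.

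Prom1, the mouse gene of the transferred protein, had 1 probe. It was measured on control arrays 1 and 3, at 1.72 and 0.66, and on prominin arrays 1 and 2, at −1.62 and −0.45, and was listed at 0 on the other array of each group. The prominin values were the lower ones and did not overlap with the controls. The difference was −2.23 (SE 0.98), with an adjusted limma p of 0.935 after Benjamini-Hochberg and an exact two-sided permutation p of 0.333 over 6 arrangements, the smallest these 4 values allow. All 4 values were small whole-number ratios. Which part of the transcript the probe reads, and the sequence that the virus carried, are unknown here, so the probe neither checks the labels nor measures the transfer.

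The genes with the smallest unadjusted p among those measured on all 6 arrays without overlap are described next, and none passed the adjusted test (adjusted limma p 0.935 after Benjamini-Hochberg for each of the 20). Rbbp5, a core subunit of histone methyltransferase complexes of the MLL family, gave −2.45, −4.77 and −2.99 in controls and 0.24, −0.39 and −0.19 in prominin cultures. All prominin arrays lay above all controls, by 3.29 on the log2 scale (SE 0.80), and no value was a small whole-number ratio. Arrb1, a beta-arrestin that binds activated G protein-coupled receptors, was also bright, at −1.33, −0.86 and −0.91 in controls and 0.60, 1.78 and 1.51 in prominin cultures, a difference of 2.32 (SE 0.67). Slc25a23, a mitochondrial carrier of ATP-Mg and phosphate, gave 0.38, 3.16 and 0.41 in controls and 4.16, 4.10 and 4.65 in prominin cultures (difference 2.98, SE 0.90). In this gene control array 2 stood near the prominin arrays and the other controls far below them.

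The other genes on the higher side held 1 to 4 small whole-number ratios each. Prmt3, a protein arginine methyltransferase, was at 0.04, −0.44 and −0.34 in controls and 2.00, 2.95 and 1.99 in prominin cultures (difference 2.55, SE 0.66). Chpf, which takes part in building chondroitin sulfate chains, was at 0.97, 0.98 and 0.51 and 3.62, 2.72 and 3.79 (difference 2.55, SE 0.67). In both genes the controls lay within 0.5 units of each other and well under every prominin array. Llcfc1, a gene known for sperm-egg fusion, differed by 2.53 (SE 0.66). Fbxo22, the substrate receptor of a ubiquitin ligase, differed by 2.52 (SE 0.74), with 0.04, 1.37 and 1.08 in controls and 3.93, 2.52 and 3.59 in prominin cultures. Ndufaf6, an assembly factor of respiratory complex I, Paqr4, a receptor family membrane protein, and Dpp8, a cytosolic dipeptidyl peptidase, differed by 2.76, 2.82 and 2.47. A second Dpp8 probe gave 0.46 (SE 1.84), so the size of that gene's difference was not shared by its probes.

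Among the 4 named genes with bright probes on the lower side, the tightest groups were those of Abcg2, the efflux transporter that marks side-population stem cells. It was at −2.42, −2.36 and −2.10 in controls and −4.55, −4.91 and −5.29 in prominin cultures, with group means of −2.29 ± 0.17 (SD, n = 3) and −4.92 ± 0.37 (SD, n = 3). The prominin arrays lay at least 2 units under the controls, the difference was −2.63 (SE 0.64), and no value was a small whole-number ratio. Kcne3, an accessory subunit of potassium channels, was at −1.69, −0.73 and −0.95 in controls and −3.83, −6.35 and −4.11 in prominin cultures (difference −3.64, SE 0.86). Dct, a melanin synthesis enzyme, was at 0.27, −0.46 and 0.27 and −2.15, −3.64 and −2.14 (difference −2.66, SE 0.73). Aatk, a kinase of neural tissue, was at 0.51, −0.40 and 0.91 and −3.48, −3.12 and −1.13 (difference −2.91, SE 0.85). These 4 probes were bright, and in each of them every prominin array was under every control.

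Auts2, a nuclear protein known from neurodevelopmental disorders, had the largest difference of the 20 genes, −4.22 (SE 0.95). Its values were 3.04, 0.02 and 2.11 in controls and −1.62, −2.45 and −3.43 in prominin cultures, 3 of them small whole-number ratios. Fbxw7, the F-box protein through which Notch, cyclin E and Myc are marked for degradation, was at 1.72, 1.54 and 2.73 in controls and 0.38, −2.35 and −3.56 in prominin cultures (difference −3.84, SE 1.06). Prominin array 1 lay closest to the controls and the other prominin arrays well under them. Plekhf1, an endosomal protein, differed by −2.69 (SE 0.69), the adhesion-family gene Ceacam10 by −3.47 (SE 1.02) and Rnu3b4, a small nucleolar RNA gene, by −2.96 (SE 0.87). A probe named Ighv5-9, an immunoglobulin variable segment, gave 2.78, 3.30 and 3.28 in controls and 0.38, 0.40 and 0.52 in prominin cultures (difference −2.69, SE 0.63). That symbol is shared by many probes of near-identical immunoglobulin sequences, of which only this one could be tested, so its identity is uncertain.

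**Figure D3:**
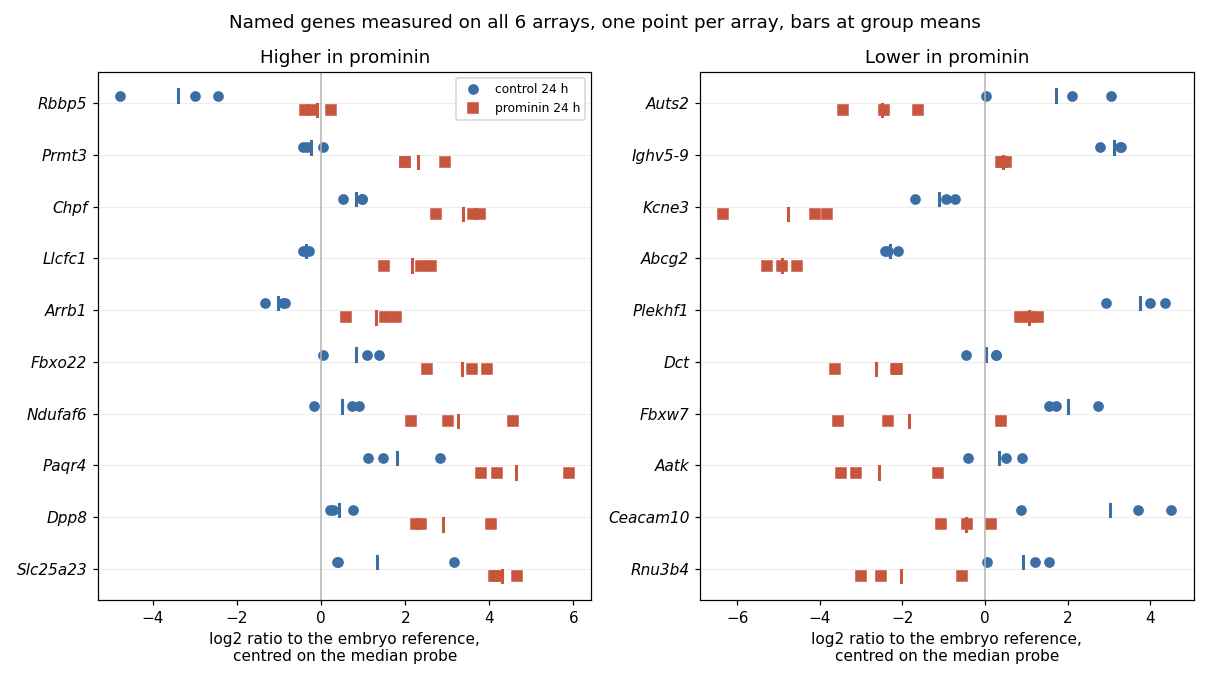
Centred log2 ratio to the embryo reference (horizontal axis) of the 20 named genes on each of the 3 control (blue circles) and 3 prominin arrays (red squares) at 24 h, with short bars at the group means. The groups do not overlap in any of these genes because that was a condition of the choice, and Abcg2 and Ighv5-9 are among the plotted genes whose points lie close together within each group.

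Larger differences stood in genes with missing values, where 2 or 3 arrays make a group. Ndrg1, a gene induced by hypoxia and by differentiation, gave 1.63 and 3.05 on control arrays 1 and 3 and −5.18, −4.25 and −5.29 on the prominin arrays. The difference of −7.25 (SE 0.86) had the lowest adjusted p of the comparison (limma, Benjamini-Hochberg, 0.588). Both control values were small whole-number ratios and all prominin values were not. A second Ndrg1 probe had a single prominin value, −3.40, beside control values of 0.36 and −2.14, and could not be tested. Fyttd1, an mRNA export adaptor, differed by −4.90 (SE 0.96), Gnptab, which starts the tagging of lysosomal enzymes, by −5.63 (SE 1.04), and the zinc finger gene Zfp975 by −5.29 (SE 1.00). Krt6b, a keratin, differed by −4.79 (SE 1.02), and by 2.68 in the other direction when exact 0 and the top code were kept as values.

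On the higher side of this group, Faf2, a membrane protein of endoplasmic reticulum-associated degradation, was at −1.48 and −1.18 on control arrays 2 and 3 and 4.60 and 5.31 on prominin arrays 2 and 3. The difference was 6.28 (SE 0.90), none of the 4 values was a small whole-number ratio, and the adjusted limma p after Benjamini-Hochberg was 0.935. Rfxank, a subunit of the RFX complex that drives MHC class II genes, gave −0.19 and −0.20 on control arrays 2 and 3 and 4.19 and 4.53 on prominin arrays 1 and 3. The controls were within 0.1 units of each other and the prominin values more than 4 units above them (difference 4.55, SE 0.88). Dcaf4, an adaptor of cullin ubiquitin ligases, and Trappc12, a vesicle tethering subunit, differed by 3.69 (SE 0.91) and 2.95 (SE 0.77). Parm1, a mucin-like protein, differed by 4.57 (SE 1.15) on this probe and by −0.43 on its second probe. With its probes averaged Parm1 stood at 1.23, and with both codes kept as values at 8.36. With exact 0 kept, Faf2, Rfxank and Dcaf4 fell back to 3.97, 2.73 and 2.30.

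Among bright probes at an unadjusted limma p under 0.05 (0.736% higher and 1.01% lower of 2583), further genes were picked after their values were seen. Only probes whose groups did not overlap were picked, which held for 4.34% (higher) and 6.85% (lower) of bright probes. Fads2, the delta-6 fatty acid desaturase, was at −1.81, −0.81 and −1.25 in controls and 0.10, 1.26 and 1.77 in prominin cultures (difference 2.34, SE 0.74). That all prominin arrays were above all controls was a condition of the choice. Pam, the enzyme that amidates neuropeptides, was at 4.74, 5.73 and 5.05 and 5.96, 7.65 and 8.08 (difference 2.06, SE 0.79), and Klc1, a kinesin light chain, at −1.07, −0.82 and −0.84 and 1.13, 1.73 and 0.18 (difference 1.92, SE 0.70). Cd47, a surface protein that inhibits phagocytosis, differed by 2.26 (SE 0.81) on one probe and by 0.33 (SE 0.79) on the other. On the lower side, Rpgrip1l, a ciliary transition zone protein, was at −2.10, −2.70 and −2.21 in controls and −4.98, −3.82 and −6.00 in prominin cultures (difference −2.60, SE 0.77). Slc4a2, an anion exchanger, Cox19, an assembly factor of cytochrome oxidase, and Ddx10, an RNA helicase, differed by −3.28, −2.21 and −2.61. Over all genes with more than 1 tested probe, the probes of a gene gave the same direction in 176 of 329 genes, and among bright probes in 19 of 28.

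Gene lists were compared with all 8954 tested probes of 1 gene symbol, of which 45.4% were higher in prominin cultures, with a median difference of −0.11, and 1.65% higher and 3.28% lower at an unadjusted limma p under 0.05. No probe of any of the 44 lists passed the adjusted test (limma, Benjamini-Hochberg). Of 24 tested neural stem and radial glia probes, 12 were higher and 12 lower, with a median of 0.03. At an unadjusted limma p under 0.05, 2 were higher (8.33%) and 0 lower. The 12 of them measured on all 6 arrays had array medians of 3.15, 3.32 and 3.17 in controls and 3.66, 3.52 and 3.97 in prominin cultures. These medians did not overlap. Over all 24 probes the array medians did overlap, at 2.34 to 3.04 in controls and 2.25 to 2.75 in prominin cultures. Among probes measured on all 6 arrays, list medians also stood apart for astrocytes (higher), DNA replication (lower) and translation factors (lower). In every other list of the 44 they overlapped. Of single probes measured on all 6 arrays, 4.24% stood apart on the higher and 5.94% on the lower side. Notch1, a receptor that keeps progenitors undifferentiated, was at 3.04, 3.36 and 1.35 in controls and 5.08, 4.80 and 5.10 in prominin cultures (difference 2.41, SE 0.76). Id1 and Id3, inhibitors of differentiation factors downstream of BMP, differed by 1.47 (SE 0.72) and 2.25 (SE 0.93), and Id3 by −0.22 when exact 0 was kept as a value. Slc1a3, the glial glutamate transporter, differed by 1.90 (SE 1.13) on one probe and by 0.66 (SE 0.67) on a second, bright one, with overlapping groups on both. Without prominin array 3 the first probe differed by 0.82.

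Lineage markers showed no common direction. Of 23 neuronal probes 8 were higher and 15 lower (median −0.35, 34.8% higher), none at an unadjusted p under 0.05. Dcx, a microtubule protein of young neurons, differed by 1.63 (SE 0.98) and the neurofilament gene Nefl by −1.70 (SE 1.00). Of 8 astrocyte probes 5 were higher (median 0.10). Gfap, the astrocyte intermediate filament, was at 8.82 ± 1.06 (SD, n = 3) in controls and 8.62 ± 0.81 (SD, n = 3) in prominin cultures, and S100b, a glial calcium-binding protein, differed by −1.04 (SE 0.71) with groups that did not overlap. Of 7 oligodendrocyte lineage probes 3 were higher and 4 lower.

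Prominin sits on protrusions, and 26 probes of protrusion proteins and prominin partners were split into 13 higher and 13 lower (median 0.07). Cttn, the actin-binding protein cortactin, was at 1.47 and 1.92 on control arrays 2 and 3 and 0.04, −0.77 and −2.21 in prominin cultures (difference −2.68, SE 0.93). It was the single probe of this list at an unadjusted limma p under 0.05 (3.85%, against 3.28% lower over all probes with 1 symbol). Rdx, the actin-membrane linker radixin, differed by −2.45 (SE 1.26) and the tetraspanin Cd9 by −1.69 (SE 0.92). Cttn, Rdx and Cd9 all had missing values, and every measured value of Cd9 was a small whole-number ratio. Among the 13 bright probes of the list 8 were higher and 5 lower (median 0.29).

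Signalling lists were mixed as well. Of 19 Notch pathway probes 10 were higher and 9 lower, of 31 Wnt probes 15 and 16, and of 22 BMP and TGF-beta probes 7 and 15 (medians 0.15, −0.13 and −0.60). Wnt7a, a Wnt ligand of the ventricular zone, was at 2.61 and 3.81 on control arrays 2 and 3 and 5.96 and 5.96 on prominin arrays 1 and 3 (difference 2.75, SE 0.94, or 7.07 with both codes kept as values). The Wnt receptor Fzd8 differed by −1.70 (SE 0.73), with small whole-number ratios on all 6 arrays. Bmp2, a BMP ligand, was at 3.04, 4.35 and 2.47 in controls and 0.38 and 0.18 on prominin arrays 1 and 3 (difference −3.01, SE 0.87), with 5 small whole-number ratios among its 5 values. Its second probe differed by −2.13 (SE 2.10), with overlapping groups. Hhip, which binds and restrains hedgehog ligands, differed by −2.90 (SE 0.99). Of 41 FGF, EGF and LIF signalling probes 19 were higher and 22 lower. The 4 at an unadjusted limma p under 0.05 were all higher (9.76%, against 1.65% of all probes with 1 symbol). They were the Src-family kinase Yes1 (3.07, SE 0.88), the ETS factor Etv1 (2.18, SE 0.83), the small GTPase Nras (2.44, SE 0.95) and the growth kinase Mtor (2.51, SE 1.00). All 4 had missing values. Among the 10 bright probes of the list 4 were higher and 6 lower (median −0.24). With exact 0 kept, Etv1, Nras and Mtor stood at 0.69, 1.27 and 1.32, and the second probe of Mtor differed by −0.46 (SE 1.45).

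Immediate early genes, which growth factor signals induce, gave 14 higher and 10 lower of 24 probes. Fos was at 5.69, 5.69 and 6.84 in controls and 3.60, 3.72 and 4.62 in prominin cultures (difference −2.09, SE 0.71). Its partner Jun was at 2.18, 2.53 and 2.07 and 2.78, 3.51 and 3.92 (difference 1.14, SE 0.67). Neither gene's groups overlapped, and the partners of the AP-1 dimer stood on opposite sides.

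Because the transfer used a virus, genes of virus sensing were listed. Of 21 interferon and antigen presentation probes 10 were higher and 11 lower (median −0.06). Cxcl10, an interferon-induced chemokine, differed by −2.46 (SE 0.94), and by 3.68 in the other direction with exact 0 and the top code kept as values. Eif2ak2, the kinase PKR that senses double-stranded RNA, was at 0.98, −0.53 and 0.17 in controls and −0.28, −3.28 and −2.16 in prominin cultures (difference −2.12, SE 0.92), with groups that overlapped. Of 13 NF-kB and inflammatory probes 8 were higher. Icam1, an adhesion molecule induced by NF-kB, spread widely, with 0.72, −5.36 and −2.34 in controls and 4.19, 1.46 and 0.28 in prominin cultures (difference 4.30, SE 1.60). Of 9 adenovirus receptor and integrin probes 4 were higher and 5 lower (median −0.73). The integrin Itgb1 was higher, at −0.59, 0.46 and −0.52 in controls and 1.12, 1.47 and 0.85 in prominin cultures (difference 1.36, SE 0.67). Lower were the integrins Itga6 (−2.31, SE 1.21) and Itga5 (−1.06, SE 0.69), without overlap, and Itgb3 (−1.62, SE 1.14), with overlap. The 2 bright probes of the list were higher.

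Growth and death lists gave the following. Of 14 probes of p53 targets 9 were higher (median 0.43), with none at an unadjusted p under 0.05. Among the higher ones were the death gene Bbc3 (2.19, SE 0.99) and the p53 inhibitor Mdm2 (2.04, SE 1.19), both with missing values. The 6 p53 target probes measured on all 6 arrays had a median of −0.06 and overlapping array medians. The 2 bright ones were lower (median −0.66). Of 15 apoptosis regulators 4 were higher and 11 lower (median −0.05). Mitosis probes were split 14 to 11 (median 0.06), and the proliferation marker Mki67 differed by −1.39 (SE 0.76). Of 35 DNA replication and S phase probes 11 were higher and 24 lower (median −0.29), and only Prim1, the small primase subunit, was at an unadjusted p under 0.05 (−2.57, SE 1.09).

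Cytosolic ribosomal protein genes leaned to the lower side. Of 63 probes 11 were higher and 52 lower (17.5% higher, against 45.4% of all probes), with a median of −0.35 against −0.11. Among the 46 bright ones 7 were higher and 39 lower. Their median relative to all probes kept its sign in 22 of 24 alternative settings and ran from −0.38 to 0.08. Array medians of the list overlapped between groups, at −0.409, −0.763 and −1.004 in controls and −0.891, −1.036 and −1.141 in prominin cultures. The list median of −0.35 was small beside the median standard error of a tested probe (0.948). Single members went further: Rpl14 differed by −0.98 (SE 0.68). Rpsa, which encodes a small-subunit protein with many near-identical gene copies, differed by −2.29 (SE 0.75) on one probe and −0.10 (SE 0.66) on another. The 67 mitochondrial ribosomal probes were split 34 to 33 and the 59 oxidative phosphorylation probes 29 to 30, both with medians at or within 0.01 of 0. Translation factors gave 16 higher and 25 lower of 41 (median −0.14).

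Lipid synthesis genes had a median above that of all probes. Of 23 cholesterol and fatty acid synthesis probes 14 were higher (60.9%), with a median of 0.38, and the relative median was above 0 in 24 of 24 alternatives (0.18 to 0.74). Among its 12 bright probes 7 were higher and 5 lower, with a median of 0.15. The list held 2 probes at an unadjusted limma p under 0.05, both higher (8.70%, against 1.65% of all probes with 1 symbol). These were Fads2, described above, and Fads1, the delta-5 desaturase. Fads1 was at −0.90, 1.86 and 1.83 in controls and 2.47, 3.68 and 3.99 in prominin cultures (difference 2.45, SE 0.95). Fads1 and Fads2 lie next to each other on the same chromosome. Array medians of the list overlapped between groups.

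In protein quality control, 16 of 30 unfolded protein response probes were higher, 11 of 13 among the bright ones (bright median 0.52). Their sensor kinase Eif2ak3 (−1.45, SE 0.72) and the stress factor Ddit3 (−1.63, SE 0.93) were on the lower side. Proteasome probes were split 18 to 17 (median 0.02). Of 60 ubiquitin ligase and deubiquitinase probes 25 were higher and 35 lower. At an unadjusted limma p under 0.05, 4 were lower (6.67%) and 1 higher (1.67%). Over all probes with 1 symbol the shares were 3.28% and 1.65%. The lower ones include Otud4 (−4.30, SE 0.92, or −8.63 with both codes kept as values) and Usp9x (−2.06, SE 0.75), both deubiquitinases. Of 41 chromatin regulator probes 21 were higher. The 3 at an unadjusted limma p under 0.05 were all higher (7.32%, against 1.65% of all probes with 1 symbol). They were Rbbp5, the Polycomb protein Cbx2 (2.37, SE 0.86) and the histone demethylase Kdm5b (2.46, SE 1.02). Of 38 synaptic probes 21 were higher. The glutamate receptor subunit gene Grik2 (1.93, SE 0.80) was the 1 probe on the higher side at an unadjusted limma p under 0.05 (2.63%, against 1.65%). The 3 on the lower side (7.89%, against 3.28%) were the scaffold genes Grip1 (−5.12, SE 1.18), Homer1 (−2.32, SE 0.77) and Dlg4 (−1.96, SE 0.77).

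Most markers of 4 cell classes outside the neural lineage were lower in prominin cultures. Of 27 liver and yolk sac plasma protein probes 5 were higher (median −0.87), of 14 erythroid probes 2 (−0.77), of 24 muscle and heart probes 7 (−0.81), and of 19 leukocyte probes 5 (−0.85). Their relative medians stayed below 0 in all alternatives that gave a value (24 of 24, 24 of 24, 24 of 24 and 22 of 22). Over probes measured on all 6 arrays, the array medians of each of the 4 lists overlapped between groups. Those of the liver list were −2.71, −4.95 and −5.64 in controls and −4.73, −4.90 and −5.44 in prominin cultures. The leukocyte list held 1 bright probe. Ttr, a plasma carrier also made by the choroid plexus, differed by −2.20 (SE 0.88). Aif1, a microglial actin-bundling protein, was at 1.56, 0.15 and 0.73 in controls and −1.59, −1.51 and −0.67 in prominin cultures (difference −2.07, SE 0.71), and the B cell factor Pax5 differed by −2.67 (SE 0.79). The pan-leukocyte gene Ptprc went the other way, with 3.04, −1.30 and −0.12 in controls and 2.96, 3.85 and 2.11 in prominin cultures. Of these 6 values 4 were small whole-number ratios. The muscle gene Myog was also higher, by 4.05 (SE 1.80), with a missing value. Liver, erythroid and muscle probes lay far below the reference (liver medians −5.52 ± 1.21 and −6.11 ± 0.38, SD, n = 3 arrays each), where all bright probes also had a lower median (−0.26 in the lowest of the 5 parts), and the part of that level in these lists' differences was not tested. In such bulk RNA fewer cells of a type and less RNA per cell cannot be told apart. Of 20 fibroblast and meninges probes 7 were higher (median −0.70), but 4 of the 6 bright ones were (bright median 0.37), so that list had no settled side. Of 12 endothelium and mural cell probes 4 were higher (median −0.20). Their median relative to all probes was −0.09 and kept its sign in 19 of 22 alternatives. Imprinted genes gave 7 higher and 15 lower of 22 (median −0.35), with Peg10 at −2.87 (SE 0.89).

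**Figure D4:**
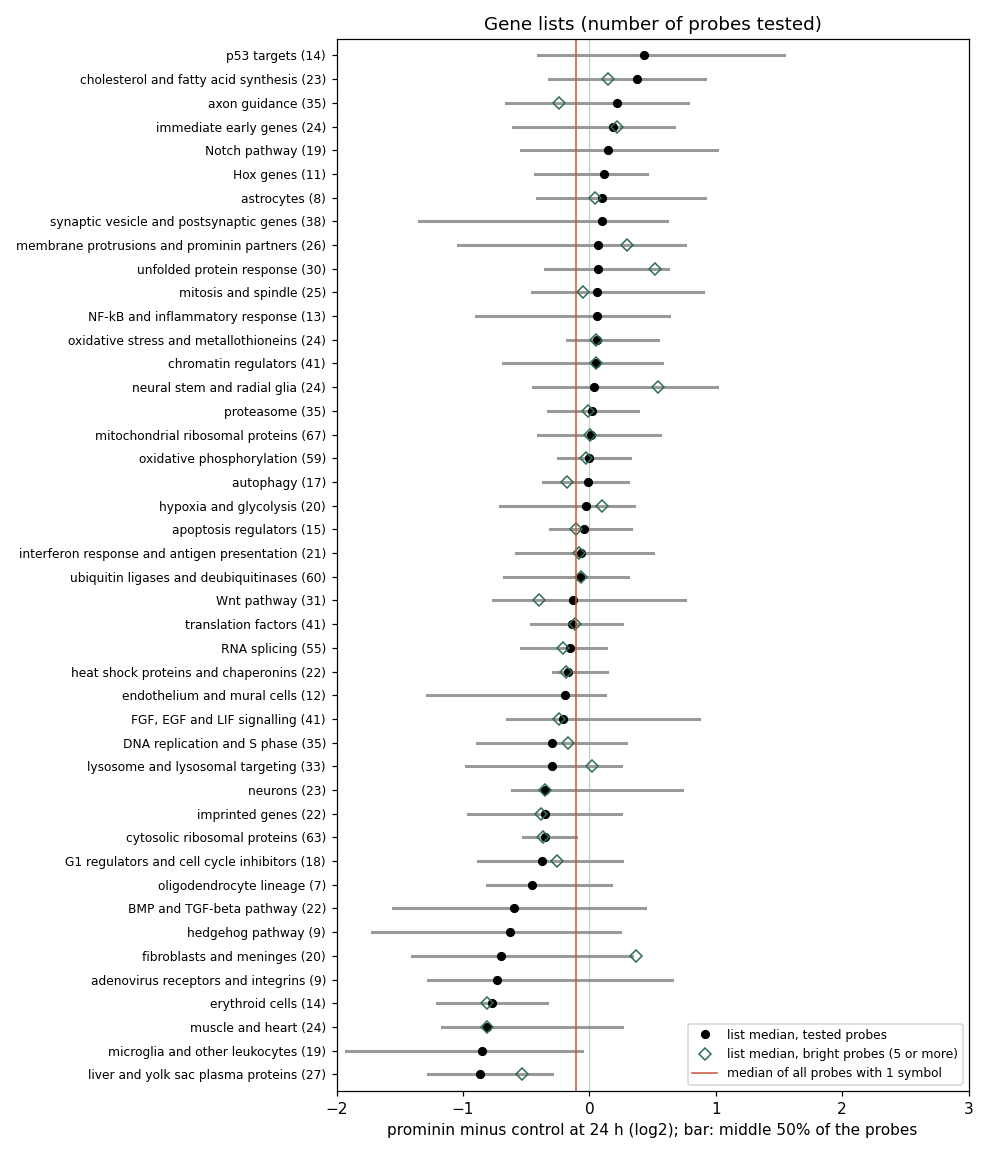
Median difference, prominin minus control at 24 h (horizontal axis, log2), of each of the 44 gene lists (black points) with the middle 50% of its probes (grey bars), the median of its bright probes where there are at least 5 (green diamonds), and the median of all probes with 1 symbol at −0.11 (red line). Cytosolic ribosomal proteins have a narrow bar left of the line (median −0.35), and liver, leukocyte, muscle and erythroid lists lie lowest (−0.87 to −0.77).

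Probes coded on every array of one group could not be tested. Counting probes measured on 3 arrays of one group and coded on all 3 of the other, 156 were coded in prominin cultures (102 of them listed at 0 throughout) and 170 in controls (105 at 0). The numbers are alike in both directions. The genes named here were picked after their values were seen. Egr1, an immediate early transcription factor, was listed at 0 on all control arrays and at 4.59, 3.01 and 6.57 on the prominin arrays. S100a8, a calcium-binding protein of neutrophils, was at −7.29, −5.94 and −6.45 on the control arrays and listed at 0 on all prominin arrays. The labels do not say what an exact 0 stands for, so no fold follows from it.

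The 108 h arrays share no control with the 24 h arrays. Over the 9155 probes tested at both times, 47.4% had the same direction, and of the 430 with an unadjusted limma p under 0.05 at 24 h, 47.2%. Among bright probes it was 45.5% of 2565, and 17 of the 43 with an unadjusted p under 0.05 at 24 h (39.5%). Of the genes named above from all 6 arrays, 14 of the 18 tested at both times had the same direction. Prmt3, Chpf and Llcfc1 were higher at 108 h by 3.04 (SE 0.98), 2.69 (SE 1.12) and 3.09 (SE 1.03), close to their 24 h differences. Faf2 went from 6.28 to 2.77 (SE 0.83). The bright genes Rbbp5, Arrb1 and Slc25a23 went from 3.29, 2.32 and 2.98 to 0.32 (SE 0.76), −0.69 (SE 0.85) and −0.90 (SE 0.91). Abcg2, with 2 control values of −3.47 and −3.50 and 1 prominin value of −6.58, could not be tested at 108 h. Fads2 went from 2.34 at 24 h to −3.08 (SE 0.94) at 108 h, and Prom1 from −2.23 to 2.58 (SE 1.00). A test of the difference between the times called 0 of 9155 probes (limma, Benjamini-Hochberg, lowest adjusted p 0.252, for Ndrg1).

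**Figure D5:**
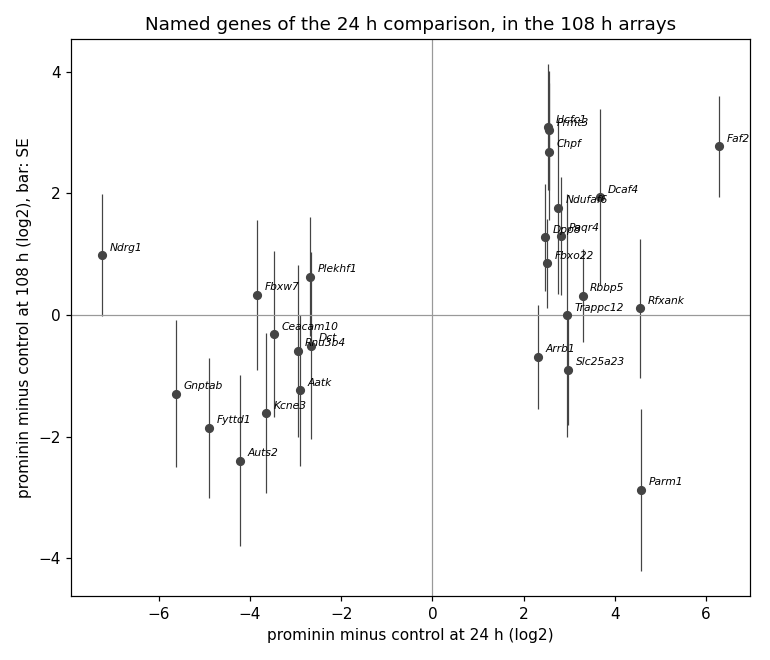
Prominin minus control at 108 h (vertical axis, log2, bars show the SE) against the same difference at 24 h (horizontal axis) for the named genes of the 24 h comparison that were tested at both times. Prmt3, Chpf, Llcfc1 and Faf2 lie above 2.5 at both times, and Ndrg1 goes from −7.25 at 24 h to 0.98 at 108 h.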

How the data were processed

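The series has 12 two-colour arrays in 4 groups of 3, and the 6 arrays of 24 h were used. Per the labels' protocols, RNA was extracted with Trizol, cleaned on RNeasy columns and labelled with dendrimers. How arrays were scanned, read and normalized is not given in the sources used here. The authors deposited log2 ratios for 21738 probes. Of these, 16620 have 1 gene symbol, 113 several and 5005 none in the platform's annotation, which can be old.

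Exact 0 and the top code of 16.61 were set to missing. The median of the 4532 probes present on every one of the 12 arrays was subtracted from each array. In R 4.3.3, limma 3.58.1 (a mean for each group, moderated variance, Benjamini-Hochberg over all 10265 probes, threshold 0.05) was applied to probes with at least 2 values in both groups, after the script was tested on simulated data. Counts and medians were made with Python 3.11.15 and pandas 2.3.3. The number of arrays limits the precision.

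Named genes are Prom1, up to 10 genes per direction by unadjusted p among probes measured on all 6 arrays without overlap, up to 5 per direction with missing values, and up to 4 members per list. Clone names were passed over. The arrays, the 44 gene lists and the rules were chosen with earlier results of these data known. Bright probes were defined after the data were seen, and the bright genes added later were taken from those without overlap. Alternatives covered centring, codes, filters, variance models, small whole-number ratios and single arrays left out.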

Additional observations from a re-analysis of the deposited data

How the results depend on the processing

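The count of 0 called probes held under 23 of 24 alternatives (limma, Benjamini-Hochberg). With exact 0 and the top code kept as values it was 26 of 21738 probes, 15 higher and 11 lower, where the codes themselves enter the difference. Leaving out each array in turn called 0 each time. At an unadjusted limma p under 0.05 there were 530 of 10265 probes, and the number tested changed with the setting. The count was 1196 of 20775 with exact 0 kept and 245 of 5289 among probes measured on all 6 arrays. With 1 array left out it ran from 301 of 7792 to 541 of 8701. With ratios of whole numbers up to 10 set to missing there were 300 of 5680. In a fit on bright probes there were 131 of 2583, and with centring on bright probes too 134 of 2583. These last 3, and a fit without both arrays numbered 1 (470 of 7722), were chosen after seeing the data. Probes coded on all arrays of one group numbered 326 with 3 measured values in the other group and 1682 with 2 or more.

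Of 88 named genes followed through the alternatives, 85 kept their direction under every one that gave a value, and 0 passed the threshold under any. Krt6b (2.68) and Cxcl10 (3.68) turned with both codes kept, and Id3 (−0.22) with exact 0 kept, with or without the top code. The cause was not tested beyond that these values enter through codes. Sizes were less stable: 37 of the 88 moved by over 1.5 times under at least 1 alternative, 17 of them with codes kept, 11 with an array left out, 10 with no centring and 6 with the probes of a gene averaged. Prom1 ran from −3.34 to −1.73 over 14 alternatives.

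Replicate numbers are shared by both groups. The deviations of same-numbered arrays correlated at 0.11, 0.04 and 0.04 and those of the other pairs at −0.11 to 0.08. As 1 of 3 was over 0.1, and control array 2 correlated best with prominin array 3, the numbers were not taken as pairs. Whether the arrays numbered 1 share a batch was not tested. With the replicate block limma called 0 probes, 588 were at an unadjusted p under 0.05, and Prom1 was at −3.34. No spot intensities were used here.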
